A study of Mus musculus with 2 samples.

Results

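Transcripts of 9 genes for lipases, their regulators and a glycerol channel were followed in mouse skeletal muscle null for Jhdm2a and in wild-type muscle. They are the intracellular lipases Pnpla2, Lipe and Mgll, the lipase regulators Abhd5 and G0s2, lipoprotein lipase Lpl with its partners Angptl4 and Gpihbp1, and the glycerol channel Aqp7. The members were taken by gene symbol, and every probe set annotated to exactly 1 of these symbols was used. This gave 19 probe sets for the 9 genes, out of 18193 genes with such a probe set, and all 9 genes had at least 1 probe set above the signal floor on both arrays, as did 9696 genes in all.

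The null-labelled array and the wild-type-labelled array each carried total RNA combined from 3 male mice aged 3 months, whose strain label gives 129 embryonic stem cells with 4 generations of backcross onto C57BL/6. Jhdm2a, now named Kdm3a, encodes a demethylase of lysine 9 on histone H3. Which muscle was taken, and which part of the gene the null allele lacks, are not given in the sources used here. With 1 array per genotype the comparison has no replicate check, so no p-value was computed, and higher or lower describes these arrays only. Values are MAS5 signals on a linear scale, and a probe set counted as measured above a floor of 182, the 60th percentile of all signals other than controls. The median signal was 112 on each array, and the log2 ratios of 18 hybridisation controls averaged -0.02 ± 0.09 (SD). Probe sets of the same gene differed in log2 ratio with a pooled SD of 0.29 over 3719 genes, which is a technical spread and says nothing of the spread between mice. The Kdm3a probe set 1426810_at had a signal of 488 in the null-labelled pool and 406 in the wild-type-labelled pool (log2 ratio 0.26), so it does not check the labels, and each direction rests on them.

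Fat stored in lipid droplets is broken down by lipases that act in turn: PNPLA2 takes the first fatty acid from triacylglycerol, LIPE cleaves mainly diacylglycerol, and MGLL splits monoacylglycerol into a fatty acid and glycerol. ABHD5 activates PNPLA2 and G0S2 inhibits it, and AQP7 lets the glycerol leave the cell. Outside the cell, lipoprotein lipase on the capillary wall releases fatty acids from circulating lipoproteins. GPIHBP1 carries it across the endothelium to the vessel lumen, and ANGPTL4 inactivates it. Muscle fibres and adipocytes both use most of these proteins, with adipocytes holding far more of the droplet-bound machinery.

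The 9 genes fell into 6 that were much lower on the null-labelled array and 3 that were close to level. Lipe, Angptl4, Aqp7, G0s2, Mgll and Pnpla2 were each at least 2-fold lower, while Gpihbp1, Abhd5 and Lpl stayed within 1.5-fold. The median log2 ratio of the 9 genes was -1.56 (2.95-fold lower), against 0.04 over all 9696 measured genes, whose SD was 0.46. In all, 6 of the 9 members were at least 1.5-fold lower, where 6.27% of all measured genes were, and the same 6 were at least 2-fold lower, where 2.36% of all measured genes were. No member was at least 1.5-fold higher, against 3.35% of all measured genes, and none at least 2-fold higher, against 0.371%. Both counts of lower members are 2, not 6, when only probe sets with a plain _at ending are used, because Pnpla2, Mgll, Angptl4 and Aqp7 then have no measured probe set. Both are 4 with the floor at the 75th percentile, where Angptl4 and Aqp7 are unmeasured, and 4 with no floor, where dim probe sets of Mgll and Angptl4 have the opposite sign. With signals under the floor set to it, Pnpla2 is at -0.82 and the count at 2-fold is 5. Between the same 2 arrays, white adipocyte markers had a median log2 ratio of -2.38 over 6 genes and brown adipocyte markers -1.16 over 8. The brown adipocyte markers Ucp1 and Cidea had ranks 1 and 2 of all 9696 measured genes from the lowest. Hepatocyte markers had a median of -2.11 over 4 genes and muscle fibre markers 0.15 over 15. The part of these cells in the lipolysis values was not tested. In a bulk sample, fewer cells of a type and less RNA per cell cannot be told apart.

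**Figure D1:**
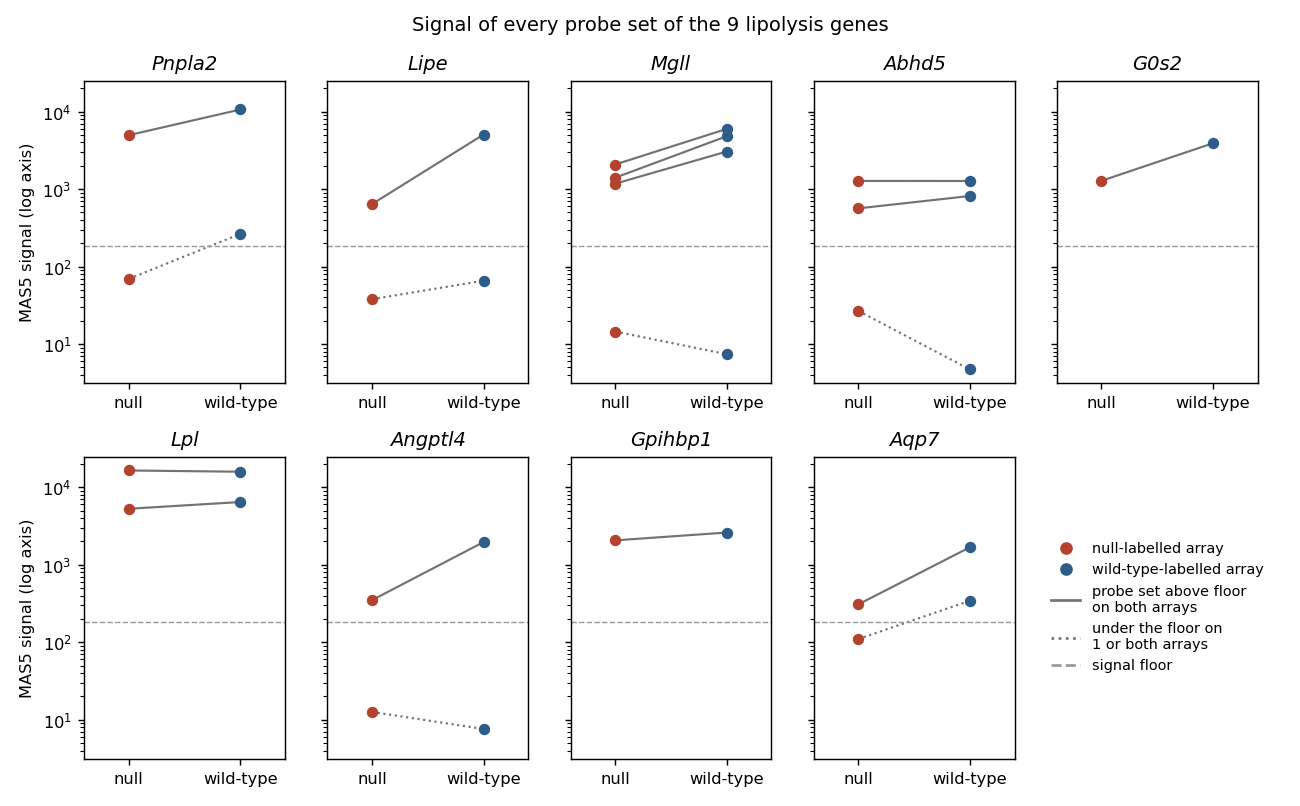
MAS5 signal (log axis) of each of the 19 probe sets on the null-labelled array (left point) and the wild-type-labelled array (right point), 1 panel per gene, with the floor of 182 dashed. Solid lines join the 13 probe sets above the floor on both arrays, and dotted lines join the other 6. Of the 13, 11 are lower on the null-labelled array. By gene means, 44.3% of all measured genes were below 0, and the share over all probe sets was not counted.

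Among the intracellular lipases, Lipe differed the most. Its probe set 1422820_at had a signal of 639 in the null-labelled pool and 5048 in the wild-type-labelled pool, 7.89-fold lower (log2 ratio -2.98). Hormone-sensitive lipase, its product, is the lipase that protein kinase A phosphorylates in stimulated adipocytes. Lipe ranked 33 of 9696 measured genes from the lowest log2 ratio, with Mgll and Pnpla2 at ranks 116 and 198. A further Lipe probe set, 1432180_at, was under the floor on both arrays, at 37.9 in the null-labelled pool and 65.7 in the wild-type-labelled pool.

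Mgll was lower in each of its 3 measured probe sets. 1426785_s_at had a signal of 2070 in the null-labelled pool and 5963 in the wild-type-labelled pool. 1450391_a_at had 1399 in the null-labelled pool and 4794 in the wild-type-labelled pool. 1453836_a_at had 1171 in the null-labelled pool and 3046 in the wild-type-labelled pool. Their log2 ratios of -1.53, -1.78 and -1.38 agree within a narrow range, with a mean of -1.56 ± 0.20 (SD, 3 probe sets), a 2.95-fold lower level of the transcript for monoacylglycerol lipase. The remaining probe set, 1431331_at, had signals of 14.5 in the null-labelled pool and 7.4 in the wild-type-labelled pool, both under the floor.

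Pnpla2, which encodes adipose triglyceride lipase, had the smallest difference of the intracellular lipases in the values as reported. Its probe set 1428143_a_at had a signal of 4951 in the null-labelled pool and 10616 in the wild-type-labelled pool, 2.14-fold lower (log2 ratio -1.10). Thus 46.6% of the wild-type-labelled signal was present on the null-labelled array, compared with 33.9% for Mgll and 12.7% for Lipe. The log2 ratio of Lipe was 1.88 below that of Pnpla2 (difference -1.88) and that of Mgll 0.46 below it (difference -0.46). The dimmer Pnpla2 probe set 1428591_at was above the floor in wild-type-labelled RNA alone, with 69.4 in the null-labelled pool and 264 in the wild-type-labelled pool, at least 1.45-fold lower. With its null-labelled signal set to the floor, the mean of both Pnpla2 probe sets is -0.82, which is under 2-fold. With every probe set used and no floor, Pnpla2 is at -1.51 and Mgll, at -0.93, has the smallest difference.

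The activator and the inhibitor of PNPLA2 differed by unequal amounts. G0s2, the inhibitor, had 1 probe set, 1448700_at, with a signal of 1276 in the null-labelled pool and 3899 in the wild-type-labelled pool, 3.06-fold lower (log2 ratio -1.61). Abhd5, the activator, had 1272 in the null-labelled pool and 1269 in the wild-type-labelled pool with 1417565_at. Its probe set 1417566_at had 563 in the null-labelled pool and 813 in the wild-type-labelled pool. The probe sets of Abhd5 thus disagreed, at log2 ratios of 0.00 and -0.53, averaging -0.26 ± 0.38 (SD, 2 probe sets), and the mean is smaller than that spread.

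The log2 ratio of G0s2 lay below that of its target Pnpla2 by a difference of -0.51, or 1.42-fold, from 1 probe set of each gene. The pooled SD of 0.29 is for single probe sets, and a difference between genes has a wider spread than that. Abhd5 stood above Pnpla2 by 0.84 (1.79-fold) and above G0s2 by 1.35 (2.54-fold). In the values as reported, differences in the ratio between these transcripts therefore lay between 1.42-fold and 2.54-fold. No test of them is possible with 1 array per genotype, and they move with the processing. With no floor Pnpla2 is at -1.51, and with signals set to the floor at -0.82, while G0s2 is at -1.61 in both. The Abhd5 value turns to 0.66 when every probe set is used without a floor, through 1447548_at, which had signals of only 26.8 in the null-labelled pool and 4.7 in the wild-type-labelled pool. Its brightest probe set alone gives 0.00.

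**Figure D2:**
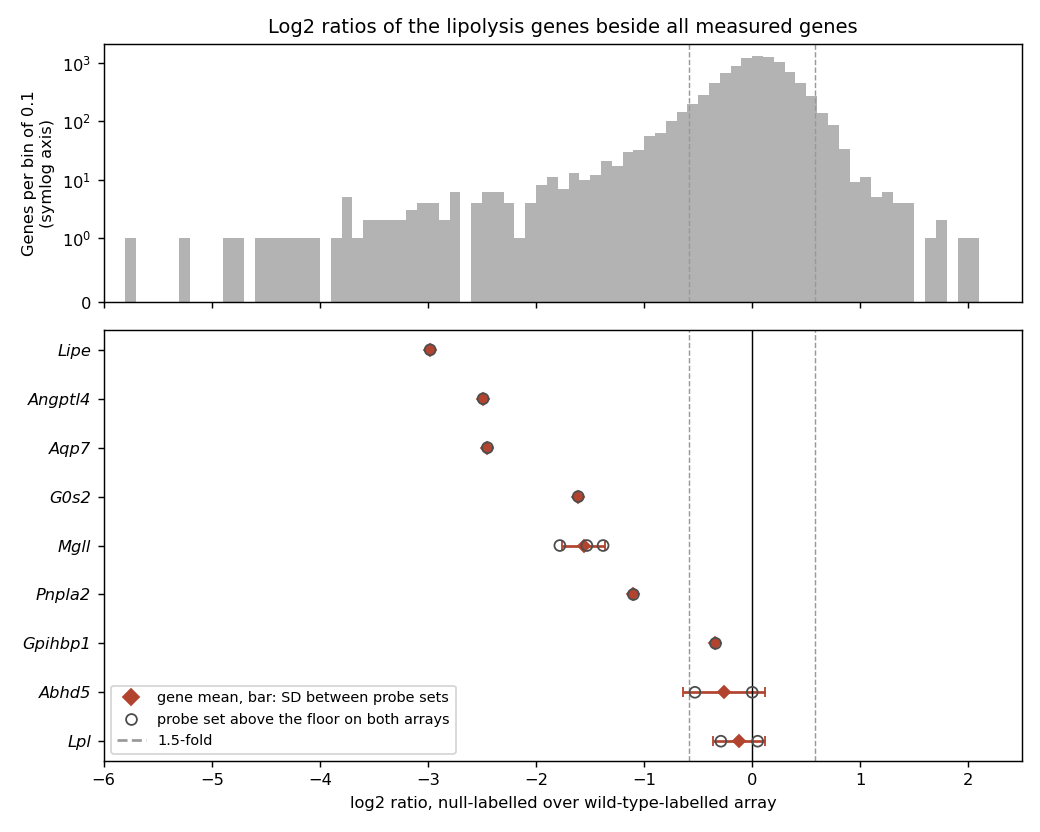
Log2 ratio, null-labelled over wild-type-labelled array, of the 9 genes (lower panel; diamonds are gene means, bars the SD between probe sets, open circles probe sets above the floor on both arrays) and of all 9696 measured genes (upper panel, genes per bin of 0.1 on a symlog axis). Lipe is the lowest member at -2.98, and Gpihbp1, Abhd5 and Lpl lie within the dashed lines at 1.5-fold.

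Lipoprotein lipase itself was nearly level while its inhibitor was not. Lpl had a signal of 16439 in the null-labelled pool and 15835 in the wild-type-labelled pool with 1415904_at. With 1431056_a_at it had 5270 in the null-labelled pool and 6439 in the wild-type-labelled pool. The log2 ratios were 0.05 and -0.29, with a mean of -0.12 ± 0.24 (SD, 2 probe sets), so the direction of Lpl is not settled by its probe sets. From the brightest probe set, or from plain _at probe sets only, it is 0.05.

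Angptl4, the secreted inhibitor of lipoprotein lipase and a transcript that fatty acids and fasting induce, was 5.62-fold lower. Its probe set 1417130_s_at had a signal of 349 in the null-labelled pool and 1961 in the wild-type-labelled pool (log2 ratio -2.49), while 1453410_at was under the floor on both arrays, at 12.6 in the null-labelled pool and 7.6 in the wild-type-labelled pool. The log2 ratio of Angptl4 lay 2.37 below that of Lpl (difference -2.37), a 5.18-fold lower ratio of inhibitor to enzyme transcript. With the floor at the 75th percentile Angptl4 has no measured probe set, since its null-labelled signal is under that floor.

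Gpihbp1, which capillary endothelial cells make, had 1 probe set, 1453022_at, with a signal of 2062 in the null-labelled pool and 2602 in the wild-type-labelled pool. This is 1.26-fold lower (log2 ratio -0.34), close to the pooled SD of 0.29 between probe sets. The difference from Lpl was -0.22. Of 12 capillary endothelial markers, all measured, 2 lay at least 1.5-fold lower, where 6.27% of all measured genes did, and their median was 0.11. Kdr, a receptor for vascular endothelial growth factor, had a signal of 356 in the null-labelled pool and 712 in the wild-type-labelled pool. Cldn5, a tight junction protein, had a log2 ratio of -0.69, while Emcn, a sialomucin of capillaries and veins, had a log2 ratio of 0.55. Pecam1 and Cdh5, adhesion molecules of all endothelium, had log2 ratios of 0.22 and -0.15.

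Aqp7, the aquaglyceroporin of adipocytes, was 5.46-fold lower with 1418849_x_at, which had a signal of 308 in the null-labelled pool and 1680 in the wild-type-labelled pool (log2 ratio -2.45). The probe set 1418848_at was above the floor in wild-type-labelled RNA alone, with 110 in the null-labelled pool and 343 in the wild-type-labelled pool, at least 1.88-fold lower. Both probe sets were lower on the null-labelled array. An _x_at probe set can also bind transcripts of other genes. Where each signal below 182 is raised to that level, the mean of both Aqp7 probe sets is -1.68.

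The start regions of these genes are shown because 5 of the 6 members found in the promoter table were lower on the null-labelled array and the other, Abhd5, was nearly level. RefSeq start sites on the build GRCm38.p6 matched 6 of the 9 members in 9 windows, and Lpl, Angptl4 and Gpihbp1 were not matched. Each stretch is the 250 bases before a start, on the strand of the gene, 5′ to 3′, and capitals mark matches on either strand to AGGTCA, the core of nuclear receptor sites, CACGTG, an E-box, or GGGCGG, a GC box. TGACGTCA, TATAAA and TTGCGCAA were also searched and gave 0 matches in the 9 windows. Neighbouring GC boxes can overlap, as 2 do at the upstream start of Lipe. The windows of the Aqp7 starts overlap, and the downstream one, which holds both AGGTCA matches found there, is printed.
Pnpla2, chr7:141454938-141455187, plus strand: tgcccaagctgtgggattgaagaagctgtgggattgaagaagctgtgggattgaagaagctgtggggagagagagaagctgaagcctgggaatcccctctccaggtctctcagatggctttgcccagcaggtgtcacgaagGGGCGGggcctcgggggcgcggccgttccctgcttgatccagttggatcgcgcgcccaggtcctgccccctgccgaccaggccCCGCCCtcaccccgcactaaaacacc
Lipe, upstream start, chr7:25395988-25396237, minus strand: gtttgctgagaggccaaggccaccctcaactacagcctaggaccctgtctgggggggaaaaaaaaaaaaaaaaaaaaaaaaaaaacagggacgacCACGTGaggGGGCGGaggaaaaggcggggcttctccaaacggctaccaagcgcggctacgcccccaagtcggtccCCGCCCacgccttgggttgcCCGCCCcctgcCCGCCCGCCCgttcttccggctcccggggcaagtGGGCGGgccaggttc
Lipe, downstream start, chr7:25390113-25390362, minus strand: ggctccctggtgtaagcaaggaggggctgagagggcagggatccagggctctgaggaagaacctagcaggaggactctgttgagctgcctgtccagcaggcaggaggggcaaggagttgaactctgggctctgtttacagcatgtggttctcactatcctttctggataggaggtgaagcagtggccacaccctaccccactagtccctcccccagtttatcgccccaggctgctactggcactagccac
Mgll, upstream start, chr6:88724162-88724411, plus strand: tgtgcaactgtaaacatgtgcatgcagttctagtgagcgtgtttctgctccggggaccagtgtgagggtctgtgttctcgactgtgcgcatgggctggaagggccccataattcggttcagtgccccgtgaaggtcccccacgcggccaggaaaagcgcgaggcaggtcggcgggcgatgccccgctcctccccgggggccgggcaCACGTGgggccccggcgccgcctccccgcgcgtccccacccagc
Mgll, downstream start, chr6:88724454-88724703, plus strand: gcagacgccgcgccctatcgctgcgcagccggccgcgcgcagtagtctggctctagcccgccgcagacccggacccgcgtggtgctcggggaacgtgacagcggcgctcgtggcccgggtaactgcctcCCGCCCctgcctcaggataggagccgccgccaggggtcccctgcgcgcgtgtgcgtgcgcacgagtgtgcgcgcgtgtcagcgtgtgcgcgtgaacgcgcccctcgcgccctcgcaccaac
G0s2, chr1:193273189-193273438, minus strand: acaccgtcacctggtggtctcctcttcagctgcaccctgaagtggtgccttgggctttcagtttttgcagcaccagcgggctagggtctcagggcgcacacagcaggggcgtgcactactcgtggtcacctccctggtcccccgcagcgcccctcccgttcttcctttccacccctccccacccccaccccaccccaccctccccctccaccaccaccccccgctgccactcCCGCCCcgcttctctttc
Aqp7, downstream start, chr4:41047963-41048212, minus strand: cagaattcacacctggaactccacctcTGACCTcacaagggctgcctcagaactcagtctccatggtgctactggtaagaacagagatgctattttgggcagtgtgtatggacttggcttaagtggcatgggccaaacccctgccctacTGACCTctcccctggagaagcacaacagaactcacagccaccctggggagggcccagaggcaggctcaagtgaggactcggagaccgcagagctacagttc
Abhd5, chr9:122351366-122351615, plus strand: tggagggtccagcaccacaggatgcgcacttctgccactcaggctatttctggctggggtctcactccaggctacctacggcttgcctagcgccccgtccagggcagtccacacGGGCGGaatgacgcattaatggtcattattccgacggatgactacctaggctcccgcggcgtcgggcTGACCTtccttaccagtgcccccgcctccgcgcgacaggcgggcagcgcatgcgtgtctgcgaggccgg

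GGGCGG was found in 5 of the 9 windows, at Pnpla2, Lipe, Mgll, Abhd5 and G0s2, and in 32.7% of the 32851 windows of the same length in the table. AGGTCA was found in the window of Abhd5 and in both windows of Aqp7, which share 1 site, and in 14% of all windows. CACGTG was found in 2 windows, of Lipe and Mgll, against 6.02% of all windows. TGACGTCA, the cAMP response element, TATAAA, the TATA box, and TTGCGCAA, a palindrome that C/EBP factors bind, are in 1.55%, 12.4% and 0.164% of all windows. The GC contents were 63.2% for Pnpla2, 67.2% for G0s2 and 64.8% for Abhd5, where the median over all windows was 52.4%. At the upstream and downstream starts they were 62.8% and 58.8% for Lipe, 68% and 74.8% for Mgll, and 50.8% and 56% for Aqp7, so the upstream window of Aqp7 lay below that median. The starts of Lipe differed in CpG content, with 18 CpG at the upstream and 1 at the downstream start. A match describes the letters and is no evidence of binding.

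The wider lipolysis pathway was described with 5 further lists, which held 46 measured genes. Their median log2 ratio was -0.30, 34 of the 46 were below 0, and 17 (37%) were at least 1.5-fold lower with 0 at least 1.5-fold higher. Over all measured genes 44.3% were below 0, 6.27% were at least 1.5-fold lower and 3.35% at least 1.5-fold higher, and the counts in each list below stand against these shares. In the list of other intracellular lipid hydrolases, 5 of 13 measured genes lay at least 1.5-fold lower, with a median of -0.09. Ces1d, a carboxylesterase that hydrolyses triacylglycerol in adipocytes and liver, had a log2 ratio of -2.98 ± 0.15 (SD, 3 probe sets), and its relative Ces1f was above the floor in wild-type-labelled RNA alone, at least 3.13-fold lower. Pnpla3, a relative of Pnpla2, had a log2 ratio of -2.37. Ddhd2, a lipase best known in neurons, had a log2 ratio of -2.06. Lipa, the acid lipase of lysosomes, had a log2 ratio of -1.16 ± 0.36 (SD, 3 probe sets), and Abhd6, a monoacylglycerol hydrolase, had a log2 ratio of -0.61. Ddhd1, a phospholipase, had 103 in the null-labelled pool and 196 in the wild-type-labelled pool with its brightest probe set, the wild-type-labelled signal just above the floor. The other measured PNPLA family members were within 1.5-fold, with Pnpla5, Pnpla6, Pnpla7 and Pnpla8 at 0.41, -0.09, -0.05 and 0.36.

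Droplet proteins and lipase inhibitors had a median of -0.53 over 7 measured genes, all with a mean below 0, with 3 at least 1.5-fold lower. Of these, Ubxn4 had a mean of -0.15 ± 0.41 (SD, 3 probe sets), with probe sets of both signs. Plin1, also listed, had no probe set annotated to its symbol alone. Cidec, which enlarges droplets and restrains lipolysis, had a log2 ratio of -4.02. Plin2, a general droplet coat, had a log2 ratio of -2.76, and Plin5, which binds PNPLA2 and ABHD5 on droplets of oxidative cells, had a log2 ratio of -1.24 ± 0.21 (SD, 2 probe sets). Plin4 had a log2 ratio of -0.53. Hilpda, an inhibitor of PNPLA2, was under the floor on both arrays.

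Genes of the hormonal control of lipolysis had unlike values within families. Of 13 measured genes of adrenergic and cAMP signalling, 4 were at least 1.5-fold lower and 0 higher, with a median of -0.26. Prkar2b, the protein kinase A regulatory subunit of adipose and nervous tissue, had a log2 ratio of -4.78 ± 0.41 (SD, 2 probe sets), while Prkar2a and Prkar1a had log2 ratios of 0.38 ± 0.41 (SD, 3 probe sets) and 0.25 ± 0.14 (SD, 2 probe sets). Pde3b, the phosphodiesterase through which insulin restrains lipolysis, had a signal of 568 in the null-labelled pool and 3152 in the wild-type-labelled pool (log2 ratio -2.47). Other cAMP phosphodiesterases, Pde4b and Pde4d, had log2 ratios of 0.50 ± 0.35 (SD, 3 probe sets) and 0.45. The brighter Pde4b probe sets 1422474_at and 1422473_at were at 0.64 and 0.75, each past 1.5-fold higher. The dimmer 1442700_at, near the floor, was at 0.09 and brought the Pde4b mean under 1.5-fold. The adenylyl cyclases were unlike, with Adcy3 at a log2 ratio of -1.46 ± 0.74 (SD, 2 probe sets), Adcy6 at -0.78 and Adcy9 at 0.07 ± 0.10 (SD, 4 probe sets). Ptger3, a prostaglandin E receptor that lowers cAMP, was above the floor in wild-type-labelled RNA alone, at least 7.43-fold lower. The catalytic subunits Prkaca and Prkacb had log2 ratios of -0.36 and -0.42.

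Among other partners of lipoprotein lipase and secreted lipases, 3 of 9 measured genes lay at least 1.5-fold lower, with a median of -0.35. Lmf1, which lipoprotein lipase needs to mature in the endoplasmic reticulum, had a signal of 291 in the null-labelled pool and 722 in the wild-type-labelled pool (log2 ratio -1.31), while Sel1l, which also takes part in its maturation, had a log2 ratio of 0.30 ± 0.21 (SD, 4 probe sets). Apoc1, an apolipoprotein that slows lipoprotein clearance, had a log2 ratio of -4.36. The proprotein convertases Pcsk6 and Pcsk5 had log2 ratios of -0.85 and -0.55. Apoc3, an apolipoprotein that inhibits lipoprotein lipase, was above the floor in wild-type-labelled RNA alone, at least 3.76-fold lower, and Apoa5, which promotes its action, was 45.2 in the null-labelled pool and 219 in the wild-type-labelled pool.

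In glycerol handling, 2 of 4 measured genes were at least 1.5-fold lower, with a median of -0.44. Gpd2, the mitochondrial glycerol 3-phosphate dehydrogenase, had a log2 ratio of -1.70 ± 1.19 (SD, 3 probe sets), and the cytosolic Gpd1 had a log2 ratio of -0.77 ± 0.47 (SD, 3 probe sets). Gpd1l and Pgp, the glycerol 3-phosphate phosphatase, had log2 ratios of -0.11 and -0.03. The glycerol kinase relative Gk5 had 97.3 in the null-labelled pool and 202 in the wild-type-labelled pool, and the other aquaglyceroporins Aqp3 and Aqp9 were under the floor on both arrays. Of the aquaglyceroporins with a probe set here, Aqp7 is thus the 1 above the floor.

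**Figure D3:**
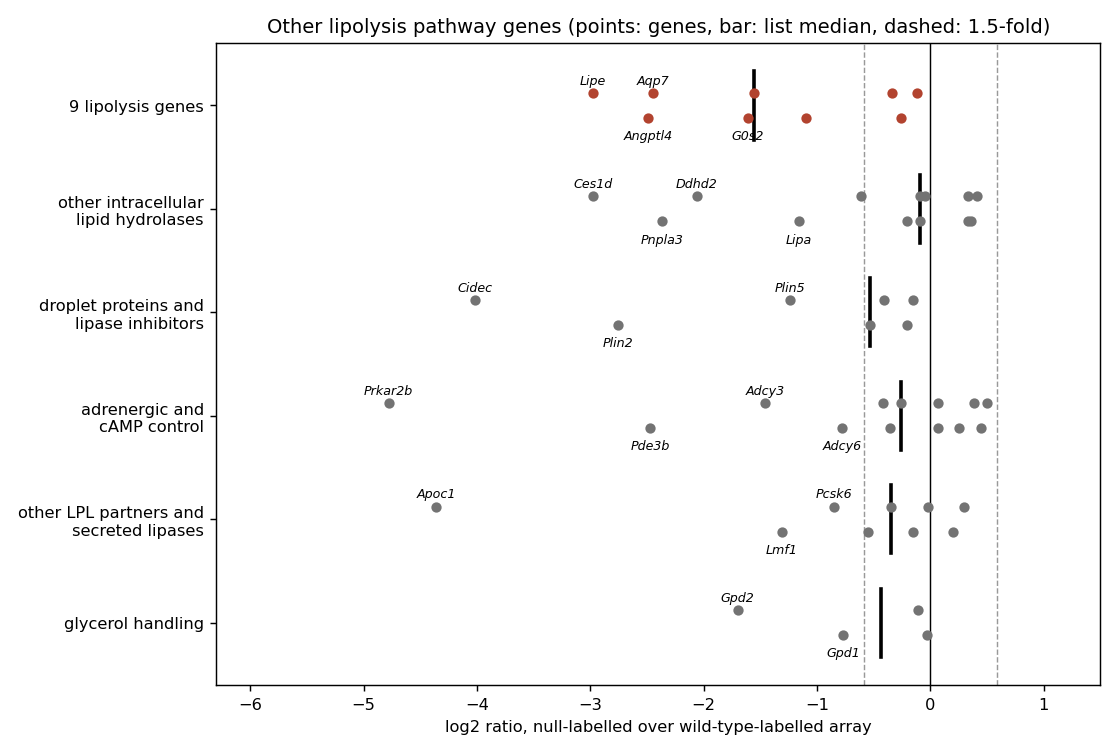
Log2 ratio, null-labelled over wild-type-labelled array, of the 9 lipolysis genes and of 46 measured genes in 5 further lists (points), with list medians as bars and 1.5-fold as dashed lines. The 9 genes have a median of -1.56 and the other lists medians between -0.53 and -0.09, and no point lies beyond 1.5-fold higher.

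Markers of fat and liver cells were lower on the null-labelled array together with the 6 lower members, and markers of muscle fibres were near level. The 15 fibre markers had a median of 0.15, ranging from -0.09 to 0.25, and their summed signal was 345215 in the null-labelled pool and 311418 in the wild-type-labelled pool. Fibre markers were bright on both arrays, as the tissue label would have it, with Acta1, the skeletal actin, and Ckm, the muscle creatine kinase, at 0.25 and 0.22, and Tnnt3 and Tnni2, fast troponin subunits, and Myh4, a fast myosin, at 0.10, 0.24 and 0.19. Of the 10 white adipocyte markers with a probe set, 6 were measured with a median of -2.38, 5 of them at least 2-fold lower, where 2.36% of all measured genes were. The other 4, Acvr1c, Lep, Pparg and Trarg1, were above the floor in wild-type-labelled RNA alone. Over all genes, 10699 had a probe set above the floor on at least 1 array and 9696 on both. The share above it in wild-type-labelled RNA alone was not counted, for setting beside these and the brown adipocyte and hepatocyte genes below. The summed signal of these markers was 23536 in the null-labelled pool and 69433 in the wild-type-labelled pool, 33.9%. Fabp4, the adipocyte fatty acid binding protein that endothelium also makes, gave 20712 of the null-labelled and 44919 of the wild-type-labelled sum, and the other 9 genes summed to 2824 in the null-labelled pool and 24514 in the wild-type-labelled pool, 11.5%. Adig, Adipoq and Cebpa, the genes for adipogenin, adiponectin and an adipocyte transcription factor, had log2 ratios of -3.72, -3.32 and -3.14, while Retn, the adipocyte hormone resistin, Fabp4 and Slc7a10, an amino acid transporter, had log2 ratios of -1.63, -1.11 and -0.45.

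Brown adipocyte markers had a median of -1.16 over 8 measured genes and a summed signal of 37442 in the null-labelled pool and 81121 in the wild-type-labelled pool, 46.2%. Cox8b and Cox7a1, which muscle also expresses, gave 32630 of the null-labelled and 34117 of the wild-type-labelled sum, and the other 8 genes summed to 4812 in the null-labelled pool and 47004 in the wild-type-labelled pool, 10.2%. Ucp1 and Cidea had log2 ratios of -5.71 and -5.21, S100b had a log2 ratio of -2.46, and Elovl3 and Otop1 were above the floor in wild-type-labelled RNA alone, while Cox8b and Cox7a1 had log2 ratios of -0.13 and 0.03. Pank1, a pantothenate kinase, Prdm16, a transcription factor of brown fat, and Dio2, a thyroid hormone deiodinase, had log2 ratios of -1.88, -0.43 and -0.34. The Dio2 value comes from its dimmest probe set, 1418938_at, with 196 in the null-labelled pool and 248 in the wild-type-labelled pool. The brighter Dio2 probe sets 1418937_at and 1426081_a_at were above the floor in wild-type-labelled RNA alone, at least 5.26-fold and 1.97-fold lower. Hepatocyte markers had a median of -2.11 over 4 measured genes and a summed signal of 3844 in the null-labelled pool and 28627 in the wild-type-labelled pool. Serpina1c, Alb, Cyp2e1 and Apoh had log2 ratios of -3.55, -2.87, -1.35 and -0.29. The Apoh value comes from 1447719_at, with 186 in the null-labelled pool and 227 in the wild-type-labelled pool, close to the floor. The brighter Apoh probe set 1416677_at had 160 in the null-labelled pool and 432 in the wild-type-labelled pool, at least 2.37-fold lower. Ambp, Apoa1, Apoa2, Fga and Ttr were above the floor in wild-type-labelled RNA alone, and Apob, Fgb, Fgg and Ahsg were under it on both. Macrophage markers, a cell type that also makes lipoprotein lipase, had a median of -0.18 over 9 genes, ranging from -0.68 to 0.11, and their summed signal was 9222 in the null-labelled pool and 11167 in the wild-type-labelled pool. Cd163, C1qa and Csf1r, the lowest of them, had log2 ratios of -0.68, -0.38 and -0.36, while Adgre1 and Lyz2 had log2 ratios of 0.11 and 0.07. Of the 9, 7 were below 0, where 44.3% of all measured genes were.

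The 6 lower members, with log2 ratios from -2.98 to -1.10, lay inside the range of the measured white adipocyte markers (-3.72 to -0.45), of the brown adipocyte markers (-5.71 to 0.03) and of the hepatocyte markers (-3.55 to -0.29). They lay below each of the measured fibre, endothelial and macrophage markers. Gpihbp1, Abhd5 and Lpl, at -0.34, -0.26 and -0.12, lay above the 6 measured white adipocyte markers, below the 15 fibre markers, and inside the ranges of brown adipocyte, endothelial and macrophage markers. The ranges of the fat and liver lists overlap each other. These ranges depend on the floor, because markers above it in wild-type-labelled RNA alone are left out. Among those left out are Ttr, Otop1 and Trarg1, with probe sets at least 20.4-fold, 14.8-fold and 11.9-fold lower. The upper ends come from Slc7a10 and Apoh, whose null-labelled signals of 198 and 186 are close to the floor, and from Cox7a1, which muscle also expresses. The measured genes whose log2 ratio was nearest to that of Lipe, over the 2 arrays only, were Ces1d at -2.98, Slc24a3, a sodium, potassium and calcium exchanger, at -3.00 and Uck1, a uridine and cytidine kinase, at -2.94.

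**Figure D4:**
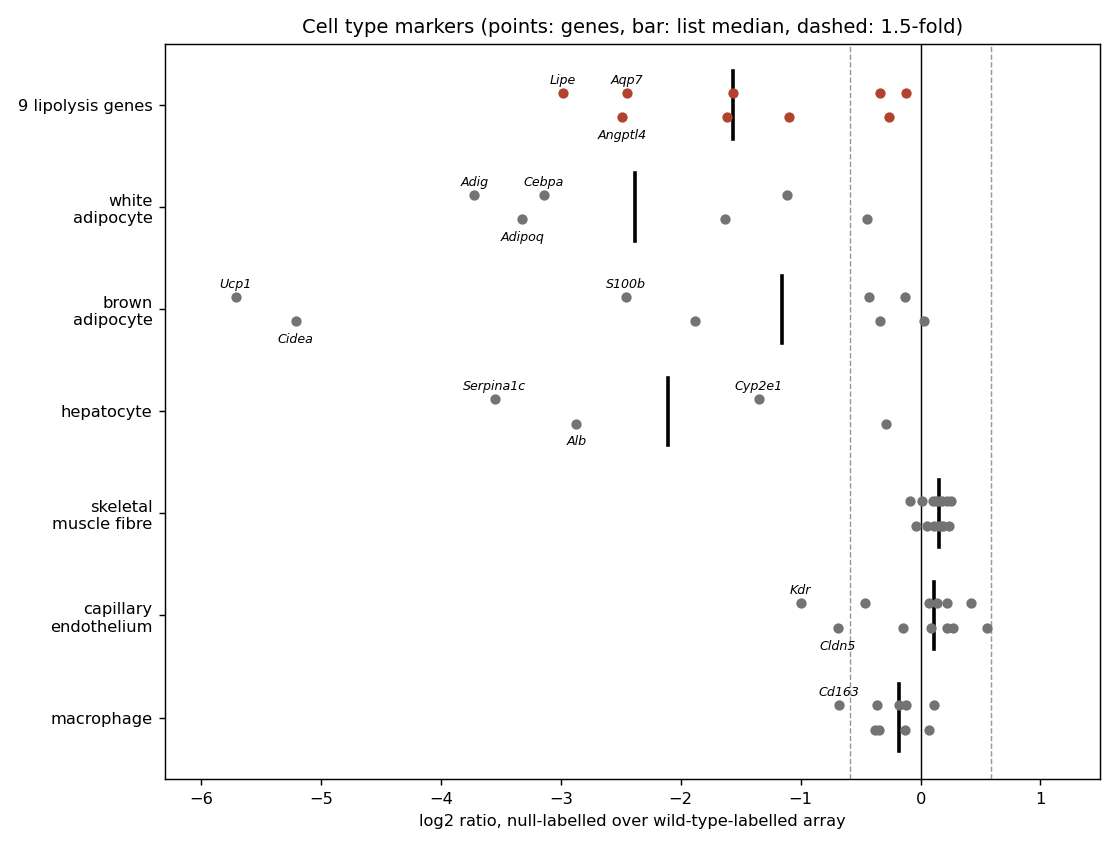
Log2 ratio, null-labelled over wild-type-labelled array, of the 9 lipolysis genes and of the measured markers of 6 cell types (points), with list medians as bars and 1.5-fold as dashed lines. Medians are -2.38 for white adipocyte, -1.16 for brown adipocyte and -2.11 for hepatocyte markers, and 0.15, 0.11 and -0.18 for fibre, endothelial and macrophage markers; genes above the floor on 1 array only are not drawn.

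As reported, the order of the 9 genes by log2 ratio had 2 wide gaps. They lay between Aqp7 and G0s2 and between Pnpla2 and Gpihbp1. Both gaps depend on the processing. With signals set to the floor, Aqp7 is at -1.68 beside G0s2 at -1.61, and Pnpla2 is at -0.82. With no floor, Angptl4 at -0.88 and Mgll at -0.93 stand above Pnpla2 at -1.51. Pnpla2 at -1.10 was the member of the lower 6 nearest to 1.5-fold, and Gpihbp1 at -0.34 the nearest of the other 3. Angptl4 and Aqp7 differed by less than the pooled SD of 0.29 between probe sets, as did G0s2 and Mgll, and as did Gpihbp1, Abhd5 and Lpl among each other, so their order within these groups is not resolved. That SD is for single probe sets, so a difference somewhat above it is not thereby resolved. Across the alternatives tried, Lipe ranged from -3.05 to -1.89, G0s2 from -1.69 to -1.59 and Gpihbp1 from -0.41 to -0.33. Angptl4 ranged from -2.53 to -0.88, Aqp7 from -2.49 to -1.68 and Pnpla2 from -1.51 to -0.82.

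**Figure D5:**
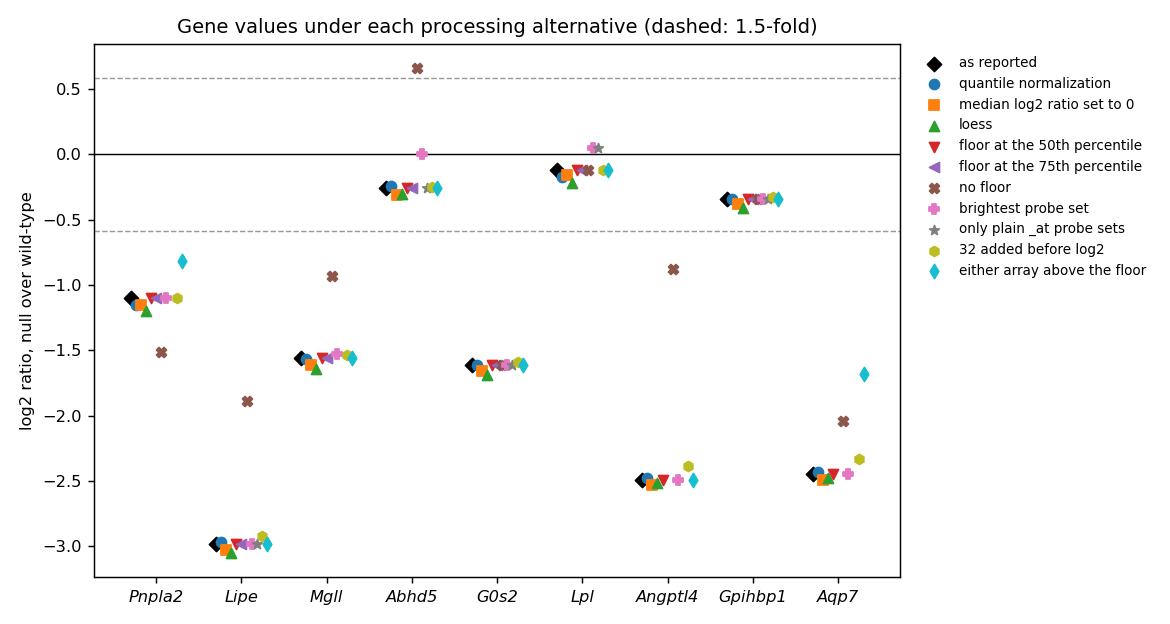
Log2 ratio, null-labelled over wild-type-labelled array, of each of the 9 genes as reported (black diamonds) and under 10 processing alternatives, with 1.5-fold as dashed lines. Using every probe set without a floor moves Lipe, Mgll and Angptl4 to -1.89, -0.93 and -0.88 and Abhd5 to 0.66, and then 4 members count as at least 1.5-fold lower, Mgll, Angptl4 and Abhd5 having probe sets of both signs.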

How the data were processed

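Skeletal muscle RNA, combined from 3 mice per genotype, was measured on 1 Affymetrix Mouse Genome 430 2 array each. The values are signal intensity per probe set, deposited by the authors on a linear scale. The submitters' processing notes name MAS5, with version and settings not given in the sources used here. The 2% trimmed mean was 500 on both arrays. Groups come from the source labels, and 0 other columns were present.

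Of 45037 probe sets other than 64 controls, 34945 had 1 gene symbol in the platform annotation, 932 several and 9160 none here. A gene's value is the mean log2 ratio, null-labelled over wild-type-labelled, of its probe sets above the floor on both arrays. A gene counted at 1.5-fold or 2-fold when its mean reached that size and its probe sets had 1 sign. A probe set above the floor on 1 array was given as a bound, its signal over the floor. The procedure was run on simulated data with large planted shifts and independent noise. That run does not bear on small differences or on disagreement between probe sets of a gene. Scripts ran in Python 3.11.15 with numpy 2.4.6, pandas 2.3.3 and statsmodels 0.14.6.

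Genes named are the 9 members with each probe set, Kdm3a, up to 4 measured genes per pathway list with the largest log2 ratio in size, genes above the floor on 1 array only, the top markers by ratio and by signal, and the 3 genes nearest to Lipe. Others in the same families (such as Pde4b, Pnpla8, Sel1l and Prkar2a) and further markers were named after their values were seen. The members and the lists were chosen with earlier results of these data known. Alternatives were quantile normalization, centring on the median, loess with span 0.4, floors at the 50th and 75th percentiles or none, the brightest probe set, plain _at probe sets, and 32 added to each signal. Signals set to the floor were an alternative chosen after seeing the data.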

Additional observations from a re-analysis of the deposited data

How the results depend on the processing

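No paired analysis was possible because each genotype is 1 array of pooled RNA, and for the same reason no replicate could be left out. Under 10 alternatives, 84 gene values were obtained, of which 77 moved by less than the SD of 0.29 between probe sets and 7 by more. The counts of members at least 1.5-fold lower and at least 2-fold lower were 2 and 2 with plain _at probe sets only, where 5 members were measured, against 6 and 6 as reported. Both counts were 4 with no floor, where Mgll and Angptl4 lose the call through dim probe sets of the opposite sign, and 4 with the floor at the 75th percentile. With signals set to the floor they were 6 and 5, Pnpla2 being at -0.82. They were 6 under the other alternatives, and the counts of higher members were 0 in each; Abhd5 with no floor, at 0.66, is past 1.5-fold by its mean but has probe sets of both signs. Of the 7 moved values, 6 came from using no floor and 1, Aqp7 at -1.68, from setting signals to the floor. Lpl ranged from -0.22 to 0.05 and Abhd5 from -0.31 to 0.66, so neither has a settled direction. The floor at the 75th percentile, 467, left Angptl4 and Aqp7 unmeasured. Signals near the floor of 182 limit Angptl4 and Aqp7 most, at 349 and 308 on the null-labelled array.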

Other observations

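Probe sets of 1 gene disagreed most in this pathway for Gpd2, the mitochondrial glycerol 3-phosphate dehydrogenase. Its probe set 1452741_s_at had a signal of 654 in the null-labelled pool and 4904 in the wild-type-labelled pool (log2 ratio -2.91). 1417434_at had 2626 in the null-labelled pool and 8396 in the wild-type-labelled pool (log2 ratio -1.68), and 1428323_at had 5591 in the null-labelled pool and 8076 in the wild-type-labelled pool (log2 ratio -0.53). All are far above the floor, and their spread of 1.19 (SD) is several times the pooled 0.29. What the probe sets cover in the transcript was not examined here.

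Angptl8, a hormone that acts with the ANGPTL inhibitors of lipoprotein lipase, had 5.1 in the null-labelled pool and 169 in the wild-type-labelled pool, both under the floor of 182, so no fold is given. Of the 4 probe sets of the lipolysis genes under the floor on both arrays, those of Mgll, Abhd5 and Angptl4 had the higher signal in null-labelled RNA, while the Lipe probe set had the lower.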
